A study of Sus scrofa with 9 samples.

Results

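Of 10 genes whose products act, or are related to products that act, when a sperm joins an egg, 8 had a row in the deposited tables and are described here: IZUMO1, IZUMO2, IZUMO3, IZUMO4, SPACA6, TMEM95, DCST1 and LLCFC1. They were taken by symbol from the Ensembl pig identifiers, out of 22342 gene identifiers in all. TMEM81 and DCST2 could not be matched to a row and are not analysed here. RNA came from pig testis cells labelled spermatogonia, spermatocytes or round spermatids, with 3 libraries for each. Sperm formation starts from dividing spermatogonia, passes through meiosis in spermatocytes, and yields haploid round spermatids that later take the shape of sperm. The column headings named the c-kit receptor for spermatogonia and the pachytene phase of meiosis for spermatocytes. The labels gave no breed, age, treatment or number of animals for these groups, and did not say how the cells were separated. A p-value here therefore reflects only how these libraries vary, and that variation may be technical.

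Fusion of sperm and egg is the last step of fertilization, and it follows release of the acrosome, the secretory cap of the sperm head. IZUMO1 moves onto the exposed sperm head and binds its receptor JUNO on the egg. On sperm it forms a complex with SPACA6 and TMEM81. TMEM95, the DCST1 and DCST2 pair and LLCFC1 (also called SOF1) are further sperm proteins without which mouse sperm reach the egg membrane but do not fuse. IZUMO2, IZUMO3 and IZUMO4 are relatives of IZUMO1. In the mouse these genes are best known from spermatids, where the acrosome is built.

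The libraries held 47963279 to 64639201 estimated counts, and levels of a gene across libraries are given in CPM, counts scaled to a common library total with TMM factors that correct for RNA composition. Markers went only in part with the labels. UCHL1, a spermatogonial enzyme, stood at 26.1 ± 1.36 CPM (SD, n = 3) in spermatogonia, at 1.72 ± 0.679 in spermatocytes and at 1.90 ± 0.686 in round spermatids. KIT, the receptor in the headings, went against the label, with 6.36 ± 0.165 CPM in spermatogonia, 7.47 ± 0.747 in spermatocytes and 24.6 ± 1.54 in round spermatids (1.95 against spermatogonia, edgeR adjusted p = 2.17e-07). Over 13 spermatogonial markers found of 16, summed CPM was 354 to 362 in spermatogonia, 368 to 425 in spermatocytes and 244 to 298 in round spermatids. Of the 12 tested, 7 were lower and 3 higher in round spermatids than in spermatogonia, and 8 were lower and 2 higher in spermatocytes. The synaptonemal complex gene SYCP1 stood at 29.3 ± 0.590, 166 ± 58.0 and 47.5 ± 19.8 CPM in the same order. Of 14 spermatocyte markers found of 16, 9 were higher and 3 lower in spermatocytes than in spermatogonia. In round spermatids 1 was higher and 11 lower than in spermatogonia. Their summed CPM was 1547 to 1612 in spermatogonia, 3664 to 4277 in spermatocytes and 558 to 655 in round spermatids. Of 13 spermatid markers found of 16, 6 were higher and 4 lower in round spermatids than in spermatogonia. In spermatocytes 1 was higher and 7 were lower than in spermatogonia. Summed CPM of the 13 was 2855 to 2913 in spermatogonia, 1000 to 2203 in spermatocytes and 5817 to 8085 in round spermatids. Libraries labelled spermatogonia thus held spermatid transcripts. They also held 307 to 326 CPM over 7 Leydig cell markers found of 9, against 6.50 to 8.37 in spermatocytes and 48.6 to 53.4 in round spermatids. All 7 were lower in spermatocytes than in spermatogonia, while in round spermatids 5 were lower and 2 higher. Round spermatid libraries held 4881 to 5924 CPM over 8 myoid markers and 1098 to 1215 over 12 Sertoli cell markers, against 22.6 to 24.5 and 269 to 279 in spermatogonia, and 9.01 to 21.3 and 52.4 to 82.8 in spermatocytes. Of these germ cell, Leydig, myoid and Sertoli markers, NANOS2 and AMH were at 0 in every spermatocyte library and none was at 0 throughout another stage. How far such transcripts set the levels below was not tested. Over genes as a whole, pairs of spermatogonia libraries had a mean chi-square per gene of 2.87 to 3.58, where noise alone gives 1. That was less than the 69.1 to 88.3 for pairs of spermatocyte libraries. The median per gene was 0.801 to 0.861 in spermatogonia and 5.11 to 10.8 in spermatocytes. Whether the 8 fusion genes themselves varied by more than counting noise between spermatogonia libraries was not tested. By the mean, round spermatids 2 stood apart from the other 2 of its stage (310 and 321, against 22.7 between those). In these bulk libraries fewer cells of a type and less RNA per cell cannot be told apart.

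Spermatogonia libraries held the most transcript of 7 of the 8 genes, and LLCFC1 was the exception, with most in round spermatids. Between spermatocytes and spermatogonia, 8 of 8 genes were lower in spermatocytes. In edgeR's quasi-likelihood test with Benjamini-Hochberg adjustment, called below 0.05, 44.0% of the 16802 genes tested were lower in that comparison and 29.3% higher. The median log2 fold change of the 8 genes was -1.71, beside -0.32 for all genes tested. Between round spermatids and spermatogonia, 7 were lower and 1 higher in round spermatids, where 39.7% of all genes were lower and 39.5% higher. There the median of the 8 genes was -1.89 and that of all genes 0.00. Between round spermatids and spermatocytes, 2 were higher, 1 was lower and 5 did not pass, beside 42.7% of all genes higher and 36.4% lower, with medians of 0.01 and 0.19. These comparisons share libraries, so they are not independent of each other. They also share an estimate of spread, which the close spermatogonia libraries enter. With only round spermatids and spermatocytes fitted, the adjusted p between them was larger than the one given below. It was 0.0018 for IZUMO2, 0.00256 for LLCFC1 and 0.000454 for IZUMO4 (edgeR). With the 3 spermatogonia libraries summed to 1, 6 of 8 were lower in spermatocytes, and against that sum 6 were lower and 0 higher in round spermatids. Without round spermatids 2, 6 were lower and 1 higher in round spermatids than in spermatogonia, and 3 were higher and 1 lower than in spermatocytes.

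**Figure D1:**
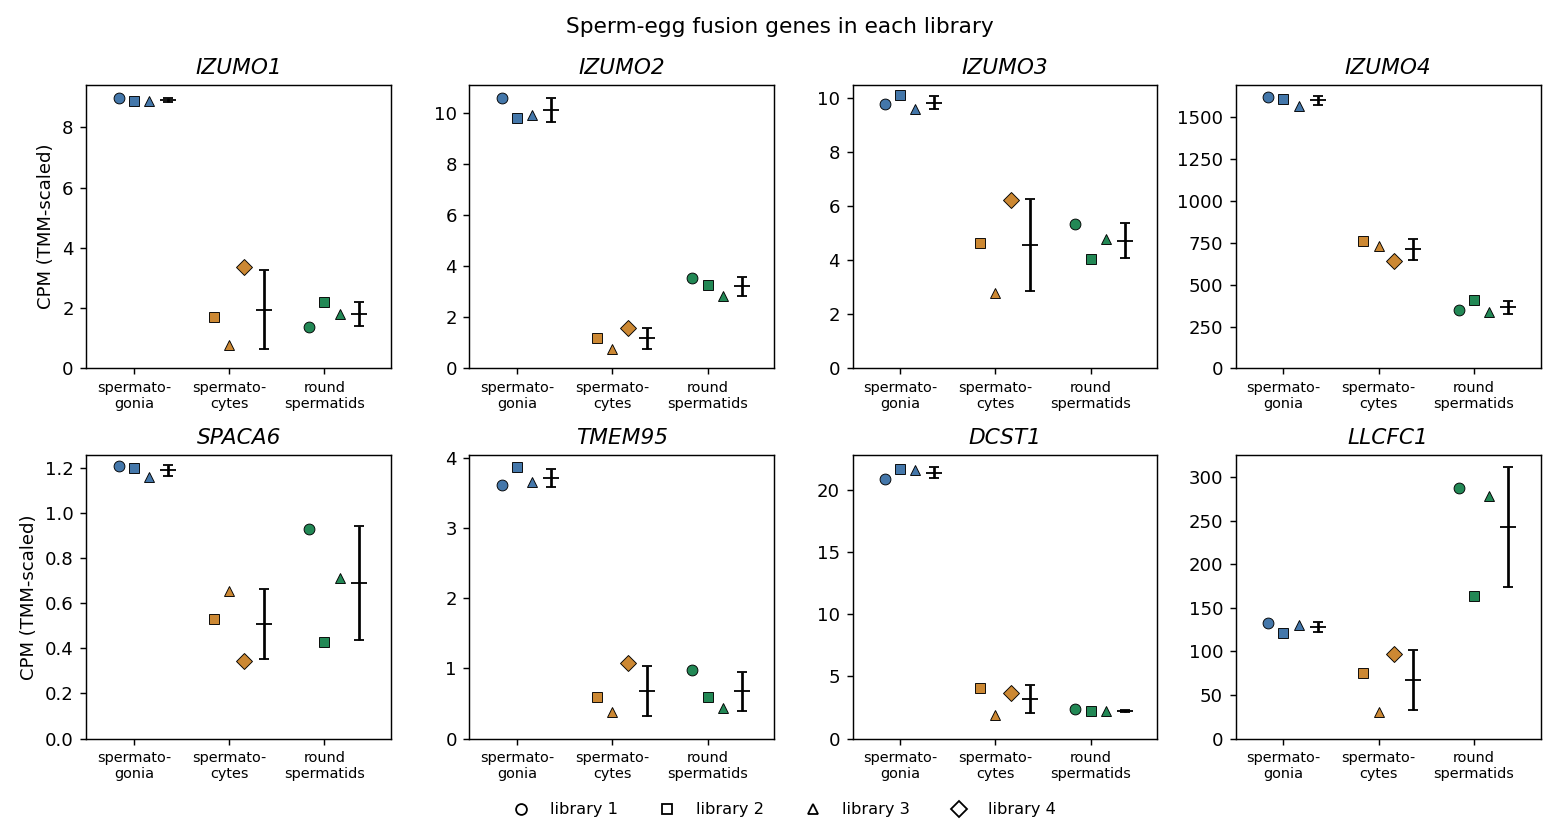
Level of each gene in each of the 9 libraries, in CPM on a linear axis from 0 that differs between panels; symbols mark the library number, and bars beside them the mean ± SD of 3 libraries. Spermatogonia libraries stand above the other stages in every panel but that of LLCFC1, where round spermatids stand highest at 164 to 288 CPM.

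IZUMO1, the sperm protein that binds the egg receptor, was at 8.99, 8.86 and 8.88 CPM in spermatogonia 1, 2 and 3. It was at 1.69, 0.786 and 3.37 CPM in spermatocytes 2, 3 and 4, and at 1.39, 2.2 and 1.81 CPM in round spermatids 1, 2 and 3. Spermatogonia stood clear of both other stages, while the ranges of spermatocytes and round spermatids overlapped. The transcript was 4.55-fold lower in spermatocytes than in spermatogonia (log2 fold change -2.18 ± 0.396 SE, edgeR adjusted p = 0.000588) and 4.95-fold lower in round spermatids (-2.31 ± 0.396, adjusted p = 0.000318). Without spermatocytes replicate 4, the spermatocyte library with the most IZUMO1, the first difference was -2.83. Without spermatocytes replicate 3, the library with the least, it was -1.81, the smallest fall among the alternatives. On log2(TPM + 0.1) it was -2.91 (limma). On that scale the median of all genes was -0.74, beside -0.32 in edgeR. Round spermatids and spermatocytes did not differ beyond their spread (-0.12 ± 0.403, edgeR adjusted p = 0.792), and the sign of that value changed between alternatives, from -0.50 to 0.63. Its identifier is ENSSSCG00000003142, and RefSeq places it on chromosome 6 of Sscrofa11.1 from 54072607 to 54076319.

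SPACA6, which sits with IZUMO1 on the sperm membrane, had the lowest mean TPM of the 8 genes in every stage. In CPM it was at 1.21, 1.20 and 1.16 CPM in spermatogonia 1, 2 and 3, from 81 to 85 counts a library. Spermatocytes 2, 3 and 4 held 0.529, 0.655 and 0.344 CPM, and round spermatids 1, 2 and 3 held 0.931, 0.430 and 0.710, from 18 to 55 counts. Spermatogonia were again above the others, and the other stages overlapped. SPACA6 was 2.35-fold lower in spermatocytes (-1.23 ± 0.318 SE, edgeR adjusted p = 0.00523) and 1.73-fold lower in round spermatids (-0.79 ± 0.303, adjusted p = 0.0341). The call in round spermatids was lost in 6 of 20 alternatives: without spermatogonia replicate 1, 2 or 3 (edgeR adjusted p = 0.0796, 0.0796 and 0.0706), without round spermatids replicate 2 (-0.54, 0.0821) or 3 (0.0688), and with the spermatogonia libraries summed to 1 (0.161). The call in spermatocytes was lost with the libraries summed (edgeR adjusted p = 0.0561). Between round spermatids and spermatocytes the difference was 0.44 ± 0.330 (adjusted p = 0.237). It passed without round spermatids replicate 2 (0.69, adjusted p = 0.0473) and with no normalization factors (0.88, adjusted p = 0.0190).

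TMEM95, a small sperm membrane protein that acts at fusion, was at 3.61, 3.86 and 3.66 CPM in spermatogonia 1, 2 and 3. Spermatocytes 2, 3 and 4 held 0.588, 0.371 and 1.07 CPM, and round spermatids 1, 2 and 3 held 0.981, 0.596 and 0.439. The later stages covered nearly the same range, far under spermatogonia. It was 5.43-fold lower in spermatocytes (-2.44 ± 0.364 SE, edgeR adjusted p = 0.000155) and 5.51-fold lower in round spermatids (-2.46 ± 0.359, adjusted p = 9.6e-05). Between the later stages the difference was -0.02 ± 0.388 (edgeR adjusted p = 0.962), with values from -0.40 to 0.47 in the alternatives. These stages rest on 17 to 58 counts a library. TMEM95 (ENSSSCG00000017945) lies on chromosome 12 from 52701119 to 52704121.

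DCST1, a protein of several membrane spans that works with DCST2, showed the widest gap between spermatogonia and round spermatids among the 8 genes. Spermatogonia 1, 2 and 3 held 20.9, 21.7 and 21.6 CPM. Spermatocytes 2, 3 and 4 held 4.04, 1.90 and 3.64 CPM, and round spermatids 1, 2 and 3 held 2.34, 2.18 and 2.23. Round spermatid libraries were close to each other and lay within the range of spermatocytes. The transcript was 6.68-fold lower in spermatocytes (-2.74 ± 0.235 SE, edgeR adjusted p = 4.21e-06) and 9.49-fold lower in round spermatids (-3.25 ± 0.240, adjusted p = 6.4e-07). Between round spermatids and spermatocytes the difference of -0.51 ± 0.234 did not pass (edgeR adjusted p = 0.0686). It passed in 4 of 20 alternatives: without spermatocytes replicate 3, the library with the least DCST1 (-0.78, adjusted p = 0.000289), with RLE size factors (-0.61, 0.0271), with no filter on low counts (-0.71, 0.0145) and with DESeq2 (-0.61, 0.0141). DCST1 (ENSSSCG00000035071) lies on chromosome 4 from 94748430 to 94768322.

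LLCFC1 (ENSSSCG00000037471), a small sperm protein that fusion needs in mice, was the gene that did not follow the others. Spermatogonia 1, 2 and 3 held 133, 121 and 130 CPM, and spermatocytes 2, 3 and 4 held 74.9, 29.9 and 97.2. Round spermatids 1, 2 and 3 held 288, 164 and 278 CPM, all above every library of the other stages. LLCFC1 was 3.61-fold higher in round spermatids than in spermatocytes (1.85 ± 0.365 SE, edgeR adjusted p = 0.000794), a call made in 20 of 20 alternatives. Beside it, the spermatid marker PRM1, which packs sperm DNA, was at 746 ± 9.66 CPM in spermatogonia, 518 ± 275 in spermatocytes and 3086 ± 708 in round spermatids. Its stage means stood in the same order as those of LLCFC1. Spermatid markers were not alike in this: of 13 tested, 6 were higher and 4 lower in round spermatids than in spermatogonia. PRM1 ranked 1 of 22342 genes by mean TPM in the libraries labelled spermatogonia. Its part in the values of LLCFC1 was not tested. Against spermatogonia LLCFC1 was 1.90-fold higher in round spermatids (0.92 ± 0.356, edgeR adjusted p = 0.0343) and 1.90-fold lower in spermatocytes (-0.93 ± 0.357, adjusted p = 0.0369), and both calls lay near the threshold. On log2(TPM + 0.1) the value in spermatocytes was -1.61 (limma), where the median of all genes was -0.74, beside -0.32 in edgeR.

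The rise of LLCFC1 from spermatogonia to round spermatids was lost in 9 of 20 alternatives. TPM is the deposited unit per transcript length. On log2(TPM + 1) the median log2 fold change of all genes in this comparison was -0.39 (limma). With a pseudocount of 0.1 that median was -0.58, beside 0.00 in edgeR. Mean TPM of LLCFC1 was 43.0 ± 1.88 in spermatogonia and 51.8 ± 2.05 in round spermatids. Its rise was 0.26 on log2(TPM + 1) (limma, adjusted p = 0.492) and 0.27 with a pseudocount of 0.1 (0.508). It was also lost without spermatogonia replicate 1, 2 or 3 (edgeR adjusted p = 0.0714, 0.0886 and 0.0760), spermatocytes replicate 2 (0.0510) or round spermatids replicate 1 or 3 (0.101 and 0.0998), and with spermatogonia summed (0.229). The fall from spermatogonia to spermatocytes was lost in 8 of 20 alternatives. These were without spermatogonia replicate 1, 2 or 3 (edgeR adjusted p = 0.0784, 0.0610 and 0.0734) or spermatocytes replicate 2 (0.0663), with RLE size factors (0.0588), no filter (0.0693), only the compared stages (0.114) or spermatogonia summed (0.138). Without spermatocytes replicate 3 the fall was -0.57, with an adjusted p of 0.05 that lay just under the threshold.

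IZUMO2 was the other gene that was higher in round spermatids than in spermatocytes. It was at 10.6, 9.81 and 9.90 CPM in spermatogonia 1, 2 and 3, and at 1.18, 0.764 and 1.57 CPM in spermatocytes 2, 3 and 4. Round spermatids 1, 2 and 3 held 3.55, 3.26 and 2.82 CPM, so that no stages overlapped and spermatocytes were lowest. The transcript was 8.60-fold lower in spermatocytes than in spermatogonia (-3.10 ± 0.233 SE, edgeR adjusted p = 2.03e-06), the largest fall of the 8 genes there. It was 2.73-fold higher in round spermatids than in spermatocytes (1.45 ± 0.230, adjusted p = 0.000168) and still 3.15-fold lower than in spermatogonia (-1.66 ± 0.213, adjusted p = 3.77e-05). IZUMO2 (ENSSSCG00000003207) lies on chromosome 6 from 55059627 to 55069937.

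IZUMO3, which in mice takes part in forming the acrosome, was lower than in spermatogonia by much the same amount in both later stages. Spermatogonia 1, 2 and 3 held 9.77, 10.1 and 9.58 CPM, spermatocytes 2, 3 and 4 held 4.63, 2.79 and 6.22, and round spermatids 1, 2 and 3 held 5.33, 4.04 and 4.78. The later stages overlapped under spermatogonia. It was 2.15-fold lower in spermatocytes (-1.11 ± 0.246 SE, edgeR adjusted p = 0.00213) and 2.08-fold lower in round spermatids (-1.06 ± 0.244, adjusted p = 0.00235). Between the later stages the difference was 0.05 ± 0.247 (edgeR adjusted p = 0.860), from -0.21 to 0.48 in the alternatives. IZUMO3 (ENSSSCG00000005129) lies on chromosome 1 from 198357091 to 198360043.

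IZUMO4, a relative that lacks the membrane anchor of IZUMO1, was lower at each later stage and had by far the highest TPM of the 8. In CPM it was at 1624, 1608 and 1570 CPM in spermatogonia 1, 2 and 3. Spermatocytes 2, 3 and 4 held 759, 732 and 642 CPM, and round spermatids 1, 2 and 3 held 350, 410 and 336. No stages overlapped. IZUMO4 was 2.25-fold lower in spermatocytes than in spermatogonia (-1.17 ± 0.115 SE, edgeR adjusted p = 9.72e-06) and 1.95-fold lower in round spermatids than in spermatocytes (-0.96 ± 0.115, adjusted p = 1.91e-05). From spermatogonia to round spermatids it was 4.38-fold lower (-2.13 ± 0.118, adjusted p = 1.04e-07). All 3 calls held in 20 of 20 alternatives. On log2(TPM + 0.1), falls from spermatogonia to round spermatids were larger by over 1.5 times in fold for IZUMO4 (-2.75), TMEM95 (-3.09), IZUMO1 (-2.90), IZUMO2 (-2.26), IZUMO3 (-1.67) and SPACA6 (-1.38). So were those of IZUMO3 (-1.70) and TMEM95 (-3.05) in spermatocytes (limma). The median of all genes moved too, from 0.00 to -0.58 in round spermatids and from -0.32 to -0.74 in spermatocytes. IZUMO4 (ENSSSCG00000013455) lies on chromosome 2 from 76472227 to 76475227.

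**Figure D2:**
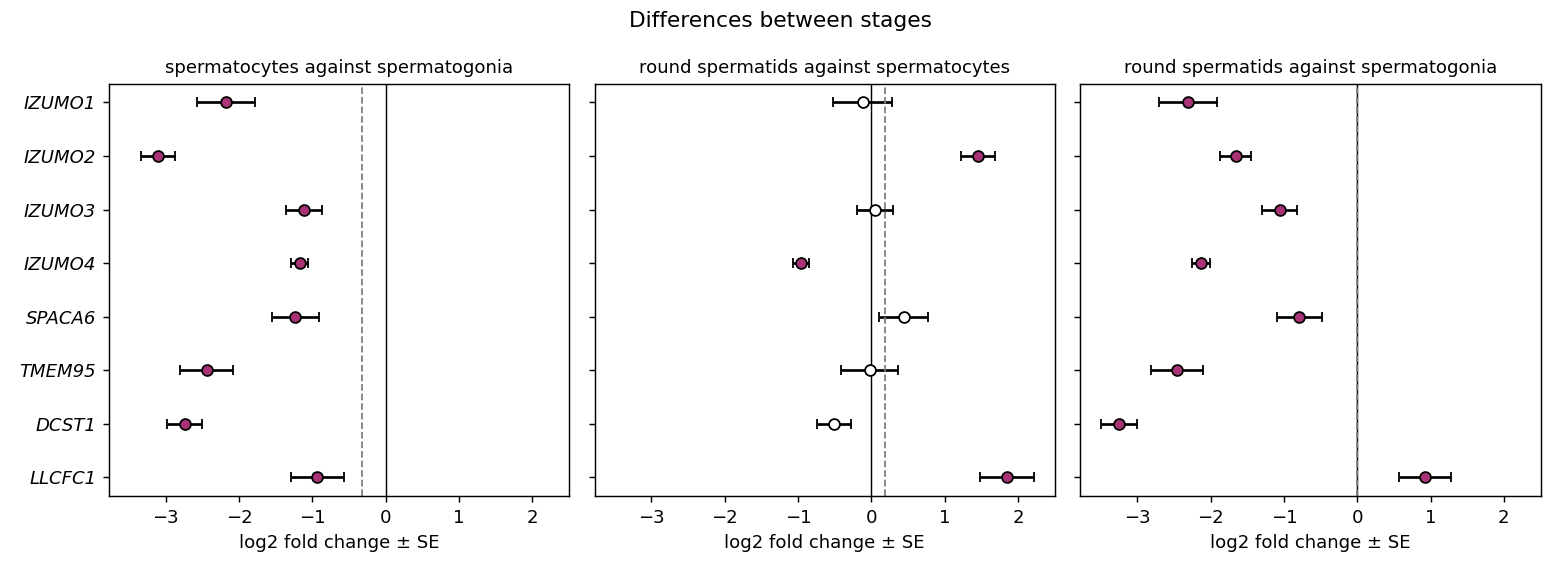
Log2 fold change ± SE of each gene in the 3 comparisons (edgeR), with filled points called at an adjusted p below 0.05 and open points not called; the dashed line is the median of all genes tested. Values against spermatogonia lie left of 0 except that of LLCFC1 in round spermatids at 0.92, and between the later stages only IZUMO2, LLCFC1 and IZUMO4 are called.

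Levels of different genes can be compared only per length, on TPM. In spermatogonia the order of mean TPM was IZUMO4 (4069 ± 50.7), IZUMO3 (53.8 ± 1.47), LLCFC1 (43.0 ± 1.88), IZUMO2 (37.9 ± 1.45), IZUMO1 (23.4 ± 0.0283), DCST1 (22.7 ± 0.627), TMEM95 (16.5 ± 0.693) and SPACA6 (2.41 ± 0.0329). Neighbours in this order did not overlap in their 3 libraries, but the means of IZUMO1 and DCST1 differed by little more than the SD of DCST1. IZUMO4 ranked 11 of 22342 genes by mean TPM there, 92 in spermatocytes and 129 in round spermatids. It made up 95.3 to 95.4% of the summed TPM of the 8 genes in spermatogonia, 94.7 to 98.1% in spermatocytes and 85.5 to 91.2% in round spermatids.

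In spermatocytes IZUMO4 stood at 1255 ± 40.3 TPM, followed by IZUMO3 at 17.6 ± 7.46 and LLCFC1 at 15.9 ± 8.72, which overlapped. IZUMO1 (3.64 ± 2.65), IZUMO2 (3.08 ± 1.20), DCST1 (2.37 ± 0.863) and TMEM95 (2.13 ± 1.28) could not be ordered beyond their spread, and SPACA6 was lowest at 0.705 ± 0.187, under every library of the other genes. In round spermatids IZUMO4 stood at 639 ± 271 TPM, LLCFC1 at 51.8 ± 2.05, IZUMO3 at 17.0 ± 2.97 and IZUMO2 at 8.13 ± 2.74, each separate from the next. IZUMO1 (3.31 ± 1.73), TMEM95 (1.97 ± 0.782) and DCST1 (1.61 ± 0.451) could not be placed in order beyond their spread, and SPACA6 was lowest at 0.877 ± 0.154, with no library as high as the lowest of DCST1. LLCFC1 thus moved from the third to the second place between spermatogonia and round spermatids, with IZUMO3 behind it in every round spermatid library. In round spermatids 2, TPM of IZUMO4 was 951 against 499 and 467 in the others, a wider gap than in CPM. Counts and TPM were linked by a gene factor and a library factor in the 16193 genes with counts in every library. The shift from CPM to TPM in that library was therefore shared by these genes and not particular to IZUMO4.

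**Figure D3:**
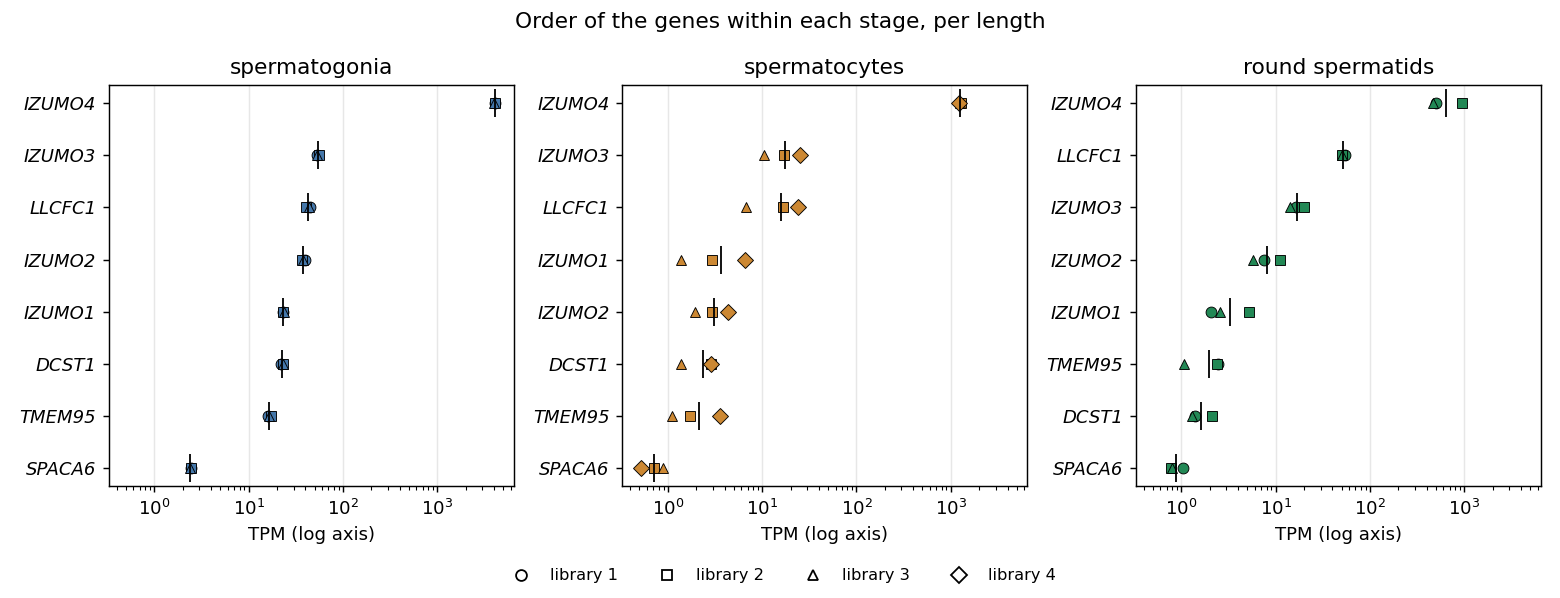
TPM of each gene in each library on a log axis, with genes ordered by their mean (vertical bar) within a stage and symbols for the library number. IZUMO4 stands apart at 467 to 4105 TPM, SPACA6 is lowest by mean in each stage, and LLCFC1 passes IZUMO3 in round spermatids.

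The ratio of estimated counts to TPM gives the length that the quantifier assigned to a gene, up to a constant shared by all genes. That length was 0.138 to 0.709 times the median gene's for 7 of the genes, with IZUMO3 shortest and DCST1 longest. For LLCFC1 it was 2.25 times the median, longer than in 90.5% of genes and 7.84 times that of IZUMO1. The coding sequence of LLCFC1 is short in other mammals, and which stretch of the longer pig model its counts come from was not tested.

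Spermatocyte libraries differed from each other far more than spermatogonia libraries. The coefficient of variation of CPM was 67.3% for IZUMO1, 53.0% for TMEM95, 50.9% for LLCFC1 and 8.56% for IZUMO4 in spermatocytes, against 0.777, 3.63, 4.86 and 1.71% in spermatogonia. Spermatocytes 3 was the lowest of the 3 for 6 of the 8 genes, and spermatocytes 4 the highest for 5. SPACA6 had its highest value in spermatocytes 3, but on only 27, 30 and 18 counts in spermatocytes 2, 3 and 4, so that this order may be counting noise. IZUMO4 had its lowest value in spermatocytes 4. Spermatid markers moved with most of these genes: 12 of 13 were lowest in spermatocytes 3, and their summed CPM was 2119, 1000 and 2203 in spermatocytes 2, 3 and 4. PRM1 stood at 682, 200 and 671 CPM in these libraries and the transition protein gene TNP2 at 335, 110 and 420. The part of this spread in the results on spermatocytes was not tested. The 3 spermatogonia libraries correlated at r = 0.997 with each other across genes, which are not independent replicates, against 0.982 to 0.989 for spermatocytes and 0.979 to 0.993 for round spermatids.

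**Figure D4:**
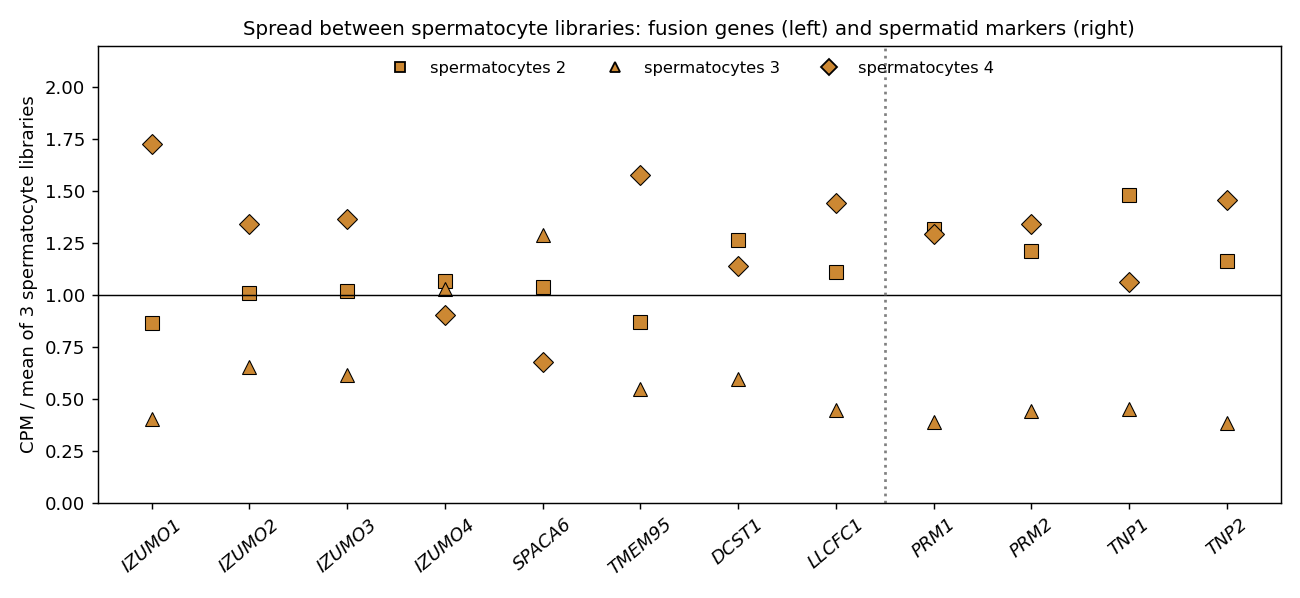
CPM in each spermatocyte library divided by the mean of the 3, for the 8 fusion genes (left of the dotted line) and for 4 spermatid markers (right). Spermatocytes 3 is lowest for 6 of the 8 fusion genes and for each of the 4 markers shown. It is highest for SPACA6, which rests on 18 to 30 counts a library.

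Other genes of sperm adhesion and fusion were read from a list of 22 names, of which 15 were found and tested. Over all genes tested, 29.3% were higher and 44.0% lower in spermatocytes than in spermatogonia, with a median of -0.32. Against spermatocytes, 42.7% were higher and 36.4% lower in round spermatids (median 0.19). Against spermatogonia the shares in round spermatids were 39.5 and 39.7% (median 0.00). Of the 15, 6 were higher and 7 lower in spermatocytes than in spermatogonia and 2 were not called, with a median of 0.06. The largest rises were those of CRISP1 (2.94), ADAM9 (1.82) and ADAM32 (1.41). The largest falls were those of SPACA3, a lysozyme-like acrosome protein (-4.00), SPATA46, which acts on spermatid head shape and fusion in mice (-2.79), and C16orf92, the fusion factor also called FIMP (-2.35). C16orf92 was at 4.11 ± 0.168 CPM in spermatogonia, 0.802 ± 0.203 in spermatocytes and 1.31 ± 0.246 in round spermatids, so that, as for IZUMO2, spermatocytes were lowest and round spermatids were higher than they were (0.70, edgeR adjusted p = 0.0179). Against spermatocytes, round spermatids had 7 of the 15 higher and 6 lower, with a median of 0.25. TSSK6, a kinase needed for IZUMO1 to move on mouse sperm, was higher by 2.7 on the log2 scale, and so was ADAM9, while ADAM32 was lower (-1.54). Against spermatogonia, 3 were higher and 7 lower in round spermatids, with a median of -0.12.

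Genes for passing the oviduct and binding the egg coat were counted in the same way, beside the same shares and medians of all genes. Of 19 tested from a list of 29 names, 5 were higher and 6 lower in spermatocytes than in spermatogonia, with a median of -0.01. CLGN, a chaperone of sperm surface proteins, was higher by 2.96 on the log2 scale (7015 ± 782 against 900 ± 7.95 CPM), ZPBP2 by 1.87 and ADAM3A by 1.77, while TEX101 (-2.29), ACE (-1.75) and the hyaluronidase gene SPAM1 (-1.48) were lower. In round spermatids 13 of the 19 were lower than in spermatocytes and 4 higher, with a median of -1.11. CLGN fell by 3.31 and ZAN, a zona-binding protein, by 2.93, while B4GALT1 rose by 2.81 and RPS6KA6 by 2.17. Of 19 acrosome genes tested, from a list of 24 names, 7 were higher and 7 lower in spermatocytes than in spermatogonia, with a median of -0.31. GOPC (1.97), STX2 (1.80) and PLCZ1 (1.47) rose most, and SPACA4 (-4.29), STX1A (-1.99) and FAM170B (-1.79) fell most. Of the 19, round spermatids had 5 higher and 10 lower than spermatocytes, with a median of -0.58. The sperm surface protein SPACA4 was at 101 ± 1.20 CPM in spermatogonia, 5.16 ± 2.19 in spermatocytes and 8.73 ± 2.82 in round spermatids. Against spermatogonia, round spermatids had 11 of 19 egg coat genes and 12 of 19 acrosome genes lower, and 4 of each higher, with medians of -0.88 and -0.86.

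The genes whose log2(CPM + 1) over the 9 libraries was most like that of a fusion gene were sought among 10407 genes with a symbol and at least 5 CPM in a stage. With 3 stages of 3 libraries such correlations are mainly set by the stage means, and they describe these libraries only. For IZUMO1 they were TMC5 (r = 0.9955), ADAM21 (0.9939), a testis member of the ADAM family, and SLC44A5 (0.9929). For IZUMO2 they were ORAI2, HDAC6 and DYRK1B (0.9953 to 0.9957), for IZUMO3 HOMEZ, GPRASP1 and HINT3 (0.9817 to 0.9912), and for IZUMO4 GSTK1, ATP8A2 and the sperm tail gene TEKT2 (0.9986 to 0.9989). For DCST1 they were GOT1L1, SPMAP1 and C1orf105 (0.9956 to 0.9983). LLCFC1 was most like the phosphodiesterase gene PDE4A (0.9954), at 90.4, 41.9 and 181 CPM in spermatogonia, spermatocytes and round spermatids, then WDR20 (0.9898) and TAFAZZIN (0.9851). SPACA6 and TMEM95 did not reach 5 CPM in a stage.

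Several of these genes lie close to others in the RefSeq annotation of Sscrofa11.1, and the sources used here do not say if counting took account of strand. MOB3A starts 169 bases after the end of IZUMO4 and was at 261 ± 3.98, 194 ± 21.0 and 73.1 ± 3.44 CPM in spermatogonia, spermatocytes and round spermatids. RASIP1 ends 191 bases before IZUMO1 and was at 14.6 ± 0.850, 4.92 ± 1.38 and 16.7 ± 1.24 CPM, and did not pass the test between round spermatids and spermatogonia (0.19, edgeR adjusted p = 0.351), where IZUMO1 did. ADAM15 ends 336 bases before DCST1 and was at 2.39 ± 0.109, 0.16 ± 0.0661 and 11.6 ± 0.187 CPM in the same order. It was highest in round spermatids, while DCST1 was highest in spermatogonia. Both were lower in spermatocytes than in spermatogonia. DCST2 begins 210 bases after DCST1 ends. No annotated gene overlapped IZUMO1, IZUMO2, IZUMO3, IZUMO4, TMEM95 or DCST1. For SPACA6 (ENSSSCG00000003238) and LLCFC1 no position was matched by symbol.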

How the data were processed

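Paired reads came from a directional library kit on an Illumina HiSeq, per the labels' protocols. Sscrofa11.1 was the build and bcl2fastq was used, per the submitters' processing notes; which aligner, quantifier and annotation served is not given in the sources used here. The authors deposited estimated counts and TPM per gene. The deposited TPM columns fall 3.19 to 11.79% short of their full sum. Columns were matched by heading and number, for spermatogonia and spermatocytes by the meaning of the heading; 6 of the 15 library columns were not used. Symbols were found for 14749 of 22342 identifiers.

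Estimated counts were rounded, filtered with filterByExpr (16802 genes kept, all 8 fusion genes among them), scaled by TMM factors (0.774 to 1.26) and fitted over all 9 libraries by glmQLFit and glmQLFTest of edgeR 4.0.16 (R 4.3.3). P-values were adjusted by Benjamini-Hochberg over all genes. SE is the log2 fold change divided by the square root of F. Alternatives were RLE or no factors, other filters, a replicate block, only the compared stages, summed spermatogonia, each library left out, limma 3.58.1 (voom, and log2 TPM with a pseudocount of 1 or 0.1) and DESeq2 1.42.0. The edgeR step was tested on simulated data. With 3 libraries against 3 an exact permutation test cannot go below p = 0.1. Positions are from RefSeq on Sscrofa11.1. The genes and lists were chosen with earlier results of these data known. The text names the 8 genes found, from each list at most the 3 largest called changes in each direction, for each fusion gene with a mean of 5 CPM or more in a stage the 3 genes most like it by Pearson correlation, each gene's nearest neighbours, and stage markers; TNP2, and which of these to print, were picked after values were seen.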

Additional observations from a re-analysis of the deposited data

How the results depend on the processing

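Of 480 values of single genes under alternatives, 450 kept direction and side of the threshold, 24 lost a call, 6 gained one and 0 reversed with a call. Genes not called between round spermatids and spermatocytes (IZUMO1, IZUMO3 and TMEM95) changed sign between alternatives. Between spermatocytes and spermatogonia 6 to 8 of the 8 genes were lower, and 0 were higher in edgeR, DESeq2 and limma alike, also at an unadjusted p below 0.05. Over all genes, higher calls fell from 4930 to 3230 with spermatogonia summed and to 2604 and 2633 on log2(TPM + 1) and log2(TPM + 0.1); leaving out single libraries gave 4438 to 5241. Between round spermatids and spermatocytes, 2 fusion genes instead of 1 were lower with RLE size factors, no filter and DESeq2, and 1 to 2 with single libraries left out. Between round spermatids and spermatogonia, 0 instead of 1 were higher with spermatogonia summed (edgeR) and on TPM (limma), 0 also at an unadjusted p below 0.05, and 0 to 1 without single libraries.

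The median of all genes for spermatocytes against spermatogonia moved from -0.32 to -0.14 with RLE and -0.74 without factors, and higher genes from 40% of calls to 26.8% without factors and 23.4% on log2(TPM + 1). Without factors they moved from 54.0 to 65.7% between the later stages, and on log2(TPM + 1) from 49.9 to 34.9% for round spermatids against spermatogonia. With the replicate block, 8 genes were lower in spermatocytes, 2 higher and 1 lower in round spermatids against spermatocytes, and 1 higher and 7 lower against spermatogonia, as without it; all-gene calls were 4638 higher and 7277 lower, 7067 and 5949, and 6625 and 6753. Same-numbered libraries did not deviate together (r from -0.0483 to 0.0283), so the numbers were not taken as pairs, and spermatocytes 4 shares its number with no library. Depth limits SPACA6 and TMEM95 most, with 17 to 58 counts a library in the later stages.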

Other observations

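Genes of the egg side of fusion were read in the same libraries. IZUMO1R, which encodes the egg receptor JUNO, was at 0.0951 ± 0.0507 CPM in spermatogonia, 0.206 ± 0.0581 in spermatocytes and 0.230 ± 0.0499 in round spermatids (SD, n = 3). It was higher in round spermatids than in spermatogonia (1.25, edgeR adjusted p = 0.0239). It had only 3, 7 and 10 counts in spermatogonia 1, 2 and 3, against 12, 12 and 17 in round spermatids 1, 2 and 3. Per length it stayed low, at a mean of 0.184 TPM in round spermatids against 0.877 for SPACA6, the lowest of the 8 fusion genes there. CD9, a tetraspanin of the egg membrane that many somatic cells also carry, was at 1.14 ± 0.103, 0.503 ± 0.503 and 18.7 ± 6.54 CPM, and its relative CD81 at 23.8 ± 0.439, 4.75 ± 0.768 and 174 ± 63.8. Both were higher in round spermatids than in spermatocytes, by 5.18 and 5.20 on the log2 scale (edgeR, adjusted p = 9.4e-06 and 3.54e-08). Summed myoid markers were at 4881 to 5924 CPM in round spermatids against 9.01 to 21.3 in spermatocytes, and 4 endothelial markers at 166 to 190 against 4.58 to 16.8; their part in this was not tested. Of the egg coat genes ZP2, ZP3 and ZP4, only ZP2 passed the filter on low counts, at 0.309 ± 0.0976 CPM in spermatogonia.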
